A study of Mus musculus with 384 samples.

Results

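The lung cells compared here were sorted for the tdTomato lineage label of 2 Lgr5-CreERT2;R26-Tom mice and were then divided by whether they held Lgr5 transcript when they were lysed. In these mice an Lgr5-IRES-CreERT2 allele drives a Cre recombinase that acts after induction, and recombination at the R26-Tom locus leaves a heritable red label, so that a labelled cell or its descendant need no longer transcribe Lgr5. Of 384 wells in the series, 57 held an Lgr5-sorted cell that passed the authors' filter (29 from mouse 1 and 28 from mouse 2), and 50 and 75 held such a cell from the Lgr6-sorted mice. A kept cell was called positive at an Lgr5 level of log2(TPM + 1) of at least 1, where TPM is a transcript level divided by length and scaled to one total for every cell, and negative at an Lgr5 count of 0. This gave 40 positive cells, 20 in each mouse, and 13 negative cells, 6 in mouse 1 and 7 in mouse 2. The other 4 cells (3 in mouse 1 and 1 in mouse 2) fell in neither group, so that 53 of the 57 cells entered the comparison.

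All groups came from collagenase and dispase digests of mouse lung, were depleted of CD31, CD45, CD11b and TER119 positive cells, and were sorted one cell to a well for full-length Smart-seq2 libraries. The stated age, 7-10 weeks, was given for most experiments and not for each mouse. Positive and negative cells of a mouse shared the animal, genotype, induction and sort. Lgr6-EGFP-CreERT2 mice, whose GFP+ cells were sorted through the same depletion gate, gave 50 and 75 kept cells from 2 mice and serve below as mice that the division into groups did not use. The gate given for the sequenced cells did not name EpCAM, the epithelial surface antigen. Reads carried no molecular identifiers, so counts are reads and intervals cover counting error only.

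Lgr5 is a seven-transmembrane receptor for R-spondins, secreted proteins that strengthen Wnt signalling by keeping Frizzled and LRP receptors at the cell surface. It is best known as a marker of cycling epithelial stem cells in the intestine, where it is itself a Wnt target. The gene lies on chromosome 10 at chr10:115450311-115587780 on the minus strand (GENCODE vM21 on GRCm38, the build also called mm10).

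In mouse 1 the 20 positive cells had Lgr5 levels from 1.44 to 10.95 with a median of 8.31 on the log2(TPM + 1) scale, and in mouse 2 the 20 positive cells ranged from 1.28 to 9.73 with a median of 7.18. Most positive cells were therefore far above the threshold, and a few lay next to it. The 3 positive cells nearest to it stood at 1.28, 1.44 and 1.54, and the 4 cells of neither group had 1 Lgr5 read each and stood at 0.59, 0.32, 0 and 0. The groups were thus chosen by the measured Lgr5 level itself, so these values are a description and were not tested. As CPM, the count of a gene scaled to one total of counts, the positive cells held 4.87 to 4166 with a median of 451. A negative cell with 0 Lgr5 reads could still have held up to 3 reads, which is 2.27 to 16.6 CPM depending on its depth, and 5 of the 40 positive cells lay at or under the highest of these limits. The division was thus between high and undetectable Lgr5 for most cells and rested on a few reads for the rest. Positive cells made up 70.2% of the 57 (exact Clopper-Pearson 95% interval 56.6 to 81.6%), with 69% in mouse 1 and 71.4% in mouse 2. Among Lgr6-sorted cells the same threshold was passed by 4 of 50 cells (8%) in mouse 1 and by 11 of 75 (14.7%) in mouse 2.

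The median total count was 224188 in positive against 329384 in negative cells of mouse 1, and 214418 against 344031 in mouse 2, which is a log2 ratio of -0.56 and -0.68. Negative cells were thus the more deeply sequenced in both mice. Over the 40 positive cells, Pearson's r between the Lgr5 level and the log10 total was 0.15, given as a description because the cells came from only 2 animals. With every cell thinned to 113000 reads, which left out 6 positive and 0 negative cells, Lgr5 was still detected in 18 of 18 positive cells of mouse 1 and in 14 of 16 of mouse 2. The number of genes detected did not follow depth in one direction. Its median was 4176.5 in positive and 4951.5 in negative cells of mouse 1, but 3640 and 3273 in mouse 2, and after thinning 3636 and 4054 against 3223.5 and 2632. A paired exact permutation test over 2 mice cannot go below p = 0.5, so these differences are given per mouse without a test.

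**Figure D1:**
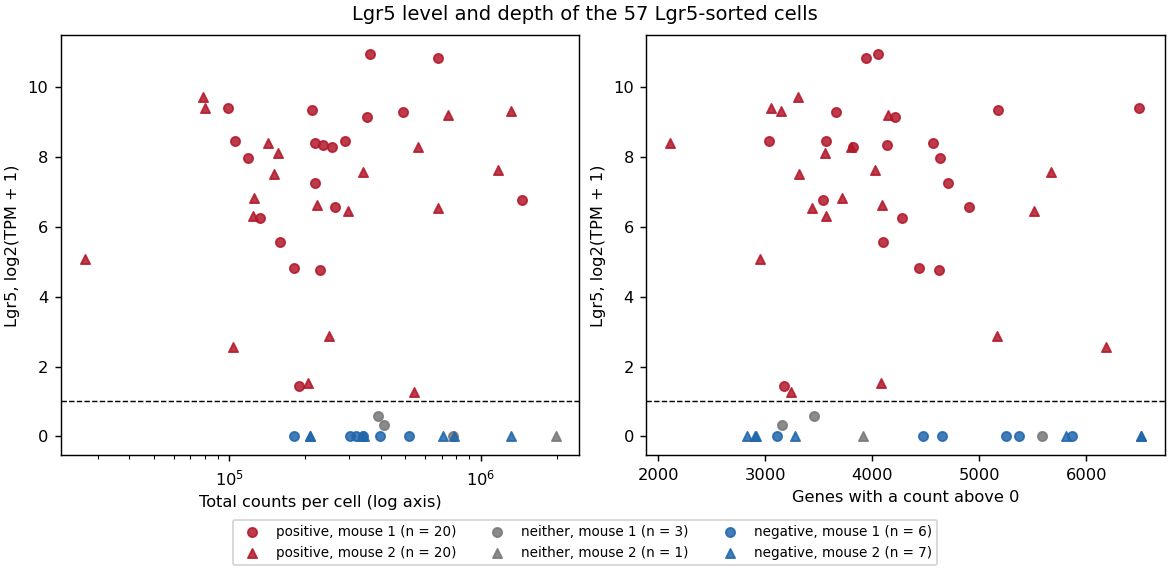
Lgr5 level of each of the 57 Lgr5-sorted cells, as log2(TPM + 1), against its total count (left, log axis) and its number of detected genes (right). Circles are mouse 1 and triangles mouse 2, and the dashed line is the threshold of 1. The 13 negative cells lie at 0, and most positive cells lie above 4.

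The lineage label itself was present in both groups. tdTomato reads were found in all 57 cells, the lowest at 5.58 on the log2(TPM + 1) scale, as the authors' filter on the reporter requires. Summed per mouse and group and scaled by TMM, the label stood at 2321 CPM in positive and 937 CPM in negative cells of mouse 1, and at 2888 and 1076 CPM in mouse 2, a log2 fold change of 1.37 ± 0.57 (SE, n = 2 mice; edgeR unadjusted p = 0.0554, adjusted p = 1). The cells overlapped widely, from 5.58 to 13.74 in positive and from 5.78 to 13.25 in negative cells, and the log2 fold change was 0.54 after thinning. The kept Lgr6-sorted cells, to which the study applied the same filter, all held tdTomato reads too, and their label names an EGFP allele.

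Both groups were largely mesenchymal by the 10 markers listed for that lineage (collagens, decorin, lumican, matrix Gla protein, vimentin and others). The median cell had 8 of the 10 markers in positive and 8 in negative cells of mouse 1, and 9 and 6 in mouse 2. Negative cells were a mixture. Of the 13, 8 held Hhip, which encodes the hedgehog-interacting protein and marks myofibroblasts of the alveolar ducts, and each of these had at least 6 mesenchymal markers and Enpp2 as well. Their Hhip level, 6.49 to 12.01 with a median of 10.14 on the log2(TPM + 1) scale, lay over that of the 39 positive cells with Hhip (5.62 to 11.44, median 9.97). Most negative cells thus overlapped the positive cells in Hhip level. Mustn1 was found in 4 of the 8 negative cells with Hhip and in 36 of the 39 positive ones.

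The other 5 negative cells had no Hhip reads. In mouse 1, well 90 held Pdgfra at 9.17 and Npnt at 10.2, markers of alveolar fibroblasts, with 8 mesenchymal markers, and well 24 held Npnt at 7.84 and the airway secretory gene Scgb1a1 at 15.4 with 9 mesenchymal markers. In mouse 2, 3 cells had 0, 4 and 3 mesenchymal markers of 10 and 9, 8 and 8 of 10 epithelial markers such as Epcam, Krt8 and Krt18. The first and the second of these each held Sftpc, the surfactant protein C gene of alveolar type II cells, at 18.6, and the third held Sec14l3 at 11.5. Only 1 positive cell had so few mesenchymal markers: well 1 of mouse 1 had 1 mesenchymal and 5 epithelial markers, Sftpc at 19.2 and 1456595 reads, the largest total among the positive cells. The 3 epithelial-marked cells of mouse 2 gave 71.9% of all reads of the negative cells of that mouse, and the deepest positive cell of mouse 1 gave 23.3% of its group. Several results below are also given without these 4 cells, that is, over cells with at least 5 mesenchymal markers, a limit chosen after the values were seen.

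**Figure D2:**
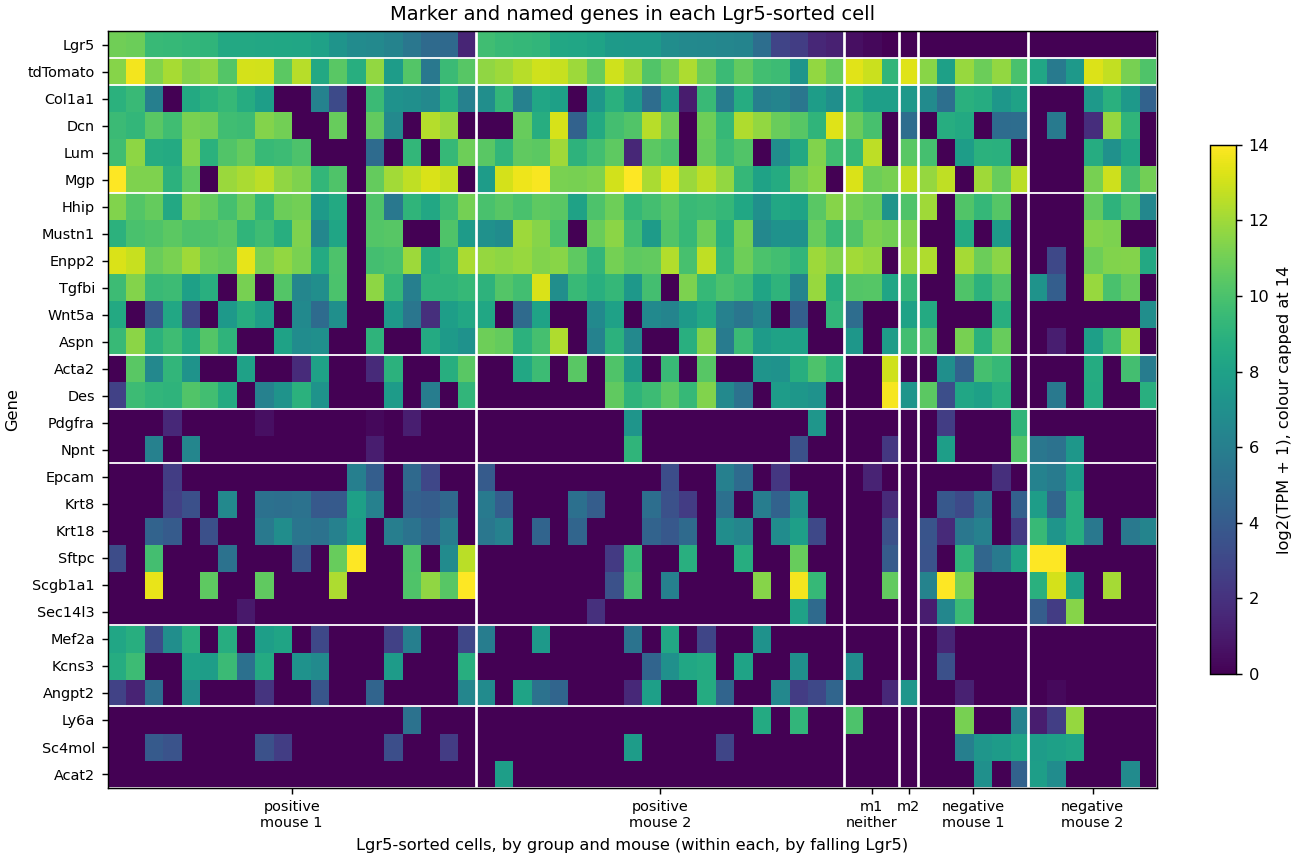
Levels of marker genes and of genes named in the text in each Lgr5-sorted cell, as log2(TPM + 1) with the colour capped at 14. Columns are cells by group and mouse, rows are genes from the reporter and mesenchymal markers at the top to the ranked genes at the bottom. Hhip and Enpp2 are bright in most negative cells, while 3 negative cells of mouse 2 are dark for mesenchymal genes and bright for Epcam, Krt8 and Krt18.

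To ask which genes differed with Lgr5 transcript, counts were summed per mouse and group and fitted with the mouse as a block, Lgr5 itself being left out. No gene passed: 0 of 10435 tested genes (0%) had a Benjamini-Hochberg adjusted p under 0.05 in the quasi-likelihood test of edgeR. At an unadjusted p under 0.05 there were 250 genes (2.4%), with 1.36% of tested genes higher and 1.03% lower in positive cells. DESeq2 on the same sums called 211 of the 8614 genes it gave an adjusted p (2.45%), with 1.44% higher and 1.01% (87 genes) lower. Limma called 0 genes on mean log2(TPM + 1) and 0 on scaled counts, and 1 gene, Mustn1, on mean log2(TPM + 0.1). The spread of the sums left after the mouse block was large, with a biological coefficient of variation of 1.18. Summed CPM was higher in positive cells of both mice for 29.3% of genes and lower in both for 19.4%, and the median fold change over all tested genes was 0.32 (log2). On mean log2(TPM + 1) that median was -0.07, a shift of -0.39, so lists are read against it.

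The genes ranked highest in positive cells, by p among those that were higher in both mice and found in at least 20 percentage points more of the positive cells in both, were Armc8, Il4ra, Rbm18, Mef2a, Kcns3, Ror1, Esr1, Angpt2, Iigp1, Prrc1, Mapk4 and Mustn1. Such a gap in detection was seen for 1.03% of tested genes toward the positive cells and for 435 (4.17%) toward the negative cells. Unadjusted p of the 12 ran from 0.00416 to 0.0156 and every adjusted p was 1 (edgeR), whereas DESeq2 gave 11 of them an adjusted p under 0.05.

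Mustn1, a small nuclear protein of the musculoskeletal lineage, was the one ranked gene seen in nearly all positive cells (36 of 40, against 4 of 13 negative cells). Its gene lies at chr14:30879200-30881610 on the plus strand. Summed Mustn1 stood at 340 CPM in positive and 39.9 CPM in negative cells of mouse 1 and at 1101 and 208 CPM in mouse 2. Both mice were higher in the positive group, by a log2 fold change of 2.74 ± 0.82 (SE, n = 2 mice; edgeR unadjusted p = 0.0156). Among cells, the median was 9.83 in positive and 0 in negative cells of mouse 1 and 9.64 and 0 in mouse 2 on the log2(TPM + 1) scale, but the ranges overlapped, from 0 to 11.3 and from 0 to 8.56 in mouse 1 and from 0 to 11.9 and from 0 to 11.4 in mouse 2, where 2 negative cells were level with the highest positive ones. The highest positive cell gave 18.1% of the Mustn1 reads in mouse 1 and 39.1% in mouse 2. The difference was 5.55 on the mean log2(TPM + 1) scale, 1.77 (log2) after thinning and 1.96 without the 4 cells of few mesenchymal markers.

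The remaining 11 genes were seen in 8 to 21 of the 40 positive cells, and 7 of them had 0 reads in the negative cells of both mice. Mef2a, a transcription factor of muscle genes, was found in 18 positive cells and 1 negative cell, with 179.3 against 0.918 CPM in mouse 1 and 38.8 against 0 CPM in mouse 2. Kcns3, a modifier subunit of voltage-gated potassium channels, was found in 17 and 1 cells, with 275 against 3.67 CPM and 79.7 against 0 CPM. Angpt2, a ligand of the Tie2 receptor of vessels, was found in 20 and 3 cells, with 25.5 against 0.459 CPM and 203 against 1.65 CPM. Armc8, a subunit of a ubiquitin ligase complex, was found in 21 and 2 cells, yet 1 cell gave 87.4% of its reads in mouse 1 and another 92.9% in mouse 2.

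Among the genes without a read in negative cells, a fold is a lower bound set by 3 reads over the negative cells of both mice together, and need not hold in each mouse. It covers the counting of summed reads and not the draw of cells. Il4ra, the shared receptor chain for interleukins 4 and 13, was at least 245-fold higher, with 49.8 CPM in mouse 1 and 190 CPM in mouse 2. Ror1, a receptor of Wnt5a, was at least 185.5-fold higher, with 189.2 and 17.9 CPM in 8 positive cells. Esr1, the estrogen receptor alpha gene, was at least 186.3-fold higher, with 207 and 4.17 CPM in 9 cells, where mouse 1 gave 1240 of its reads and mouse 2 gave 30. These bounds rest on few cells: over the 12 ranked genes, the highest cell held a median of 65.1% of a gene's reads in mouse 1 and 64.7% in mouse 2. In all, 237 of the 10435 tested genes had 0 reads in the negative cells of both mice, and 51 had 0 in the positive cells. The groups were unequal, with 40 positive and 13 negative cells. Counts of tested genes were 6.12e+06 against 2.03e+06 in mouse 1 and 7.22e+06 against 3.80e+06 in mouse 2. A low gene is more easily missed in the smaller group, so 237 and 51 cannot be set against each other.

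Promoter sequence was looked up for the ranked genes in RefSeq (GRCm38.p6), where 14 of the 24 genes had 16 entries of 300 bases, from 250 before to 50 after the start. Each was searched on both strands for the TCF/LEF core TCAAAG (reverse complement CTTTGA), to which Wnt-responsive factors bind, and for the GLI core ACCACCC (reverse complement GGGTGGT) of hedgehog signalling. Neither motif overlaps the other. The TCF/LEF core was in 1 of the 16 promoters, that of Ror1, against 16% of all 32851 promoters, and the GLI core was in 0 of 16 against 4.61%. Shown are Ror1, as the promoter with the match (in capitals), Mustn1, as the gene most widely detected in positive cells, and Sec14l3, as the gene with the smallest p toward negative cells. Ror1 is read from chr4:100095541-100095840, Mustn1 from chr14:30879007-30879306 and Sec14l3 from chr11:4064603-4064902, all on the plus strand and 5′ to 3′. A match is a description of letters and not a site.
Ror1: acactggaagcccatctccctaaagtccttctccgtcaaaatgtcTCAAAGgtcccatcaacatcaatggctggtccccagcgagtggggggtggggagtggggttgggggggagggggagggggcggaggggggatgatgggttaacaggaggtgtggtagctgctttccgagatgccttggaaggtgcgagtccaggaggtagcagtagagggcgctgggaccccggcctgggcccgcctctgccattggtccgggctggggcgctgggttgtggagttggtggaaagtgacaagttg
Mustn1: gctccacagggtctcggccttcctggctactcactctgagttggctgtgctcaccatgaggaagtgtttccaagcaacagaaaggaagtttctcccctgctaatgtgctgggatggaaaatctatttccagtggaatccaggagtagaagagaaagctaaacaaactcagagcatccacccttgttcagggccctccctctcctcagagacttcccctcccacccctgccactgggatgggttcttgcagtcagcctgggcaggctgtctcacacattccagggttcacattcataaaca
Sec14l3: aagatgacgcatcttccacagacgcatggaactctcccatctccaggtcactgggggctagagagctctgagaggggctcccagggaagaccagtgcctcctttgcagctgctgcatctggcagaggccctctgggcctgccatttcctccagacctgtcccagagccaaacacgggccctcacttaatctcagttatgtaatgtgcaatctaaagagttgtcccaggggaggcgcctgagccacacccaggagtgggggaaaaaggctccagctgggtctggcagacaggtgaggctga

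The genes ranked lowest in positive cells were Sec14l3, Ly6a, Ccnd2, Sc4mol, 5330417C22Rik, Acat2, Ormdl3, Tmem50b, Sqrdl, Enpep, A630007B06Rik and Zfp292. They were seen in 0 to 9 of 40 positive and in 4 to 8 of 13 negative cells, with unadjusted p from 0.00088 to 0.0356, adjusted p of 1 throughout (edgeR), and an adjusted p under 0.05 for 8 of the 12 by DESeq2. Sec14l3, a lipid-binding protein of the SEC14 family, stood at 0.167 CPM in positive against 235 CPM in negative cells of mouse 1 and at 8.47 against 1264 CPM in mouse 2, a log2 fold change of -8.49 ± 1.37 (SE, n = 2 mice; edgeR unadjusted p = 0.00088). Ly6a, which encodes the surface antigen Sca-1, stood at 0.333 against 131.2 CPM and 3.75 against 329 CPM. Ccnd2, cyclin D2, stood at 0.167 against 167.5 CPM and 0.417 against 74.7 CPM. Sc4mol and Acat2, both enzymes of sterol metabolism, stood at 1.33 against 80.8 CPM and 0 against 11.5 CPM in mouse 1, and at 9.17 against 228 CPM and 2.22 against 178.5 CPM in mouse 2.

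In mouse 2 the 3 epithelial-marked cells gave more than 90% of the negative cells' reads for 9 of the 12 genes, with a median of 99.9% and a lowest share of 34% for Zfp292, beside their 71.9% of all reads. Without the 4 cells of few mesenchymal markers, 9 of the 12 genes could still be tested and their log2 fold changes lay between -5.45 and -0.66. Sec14l3 then stood at -2.80, Ly6a at -2.54 and Sc4mol at -0.66. Others were as low as before, with Ormdl3 at -5.30 (from -4.91), Sqrdl at -5.33 (from -5.24) and Zfp292 at -5.19 (from -4.72). Within mouse 1, where no negative cell had so few mesenchymal markers, 1 cell still gave 82.7% of the Sec14l3 reads and 96.5% of the Ly6a reads.

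**Figure D3:**
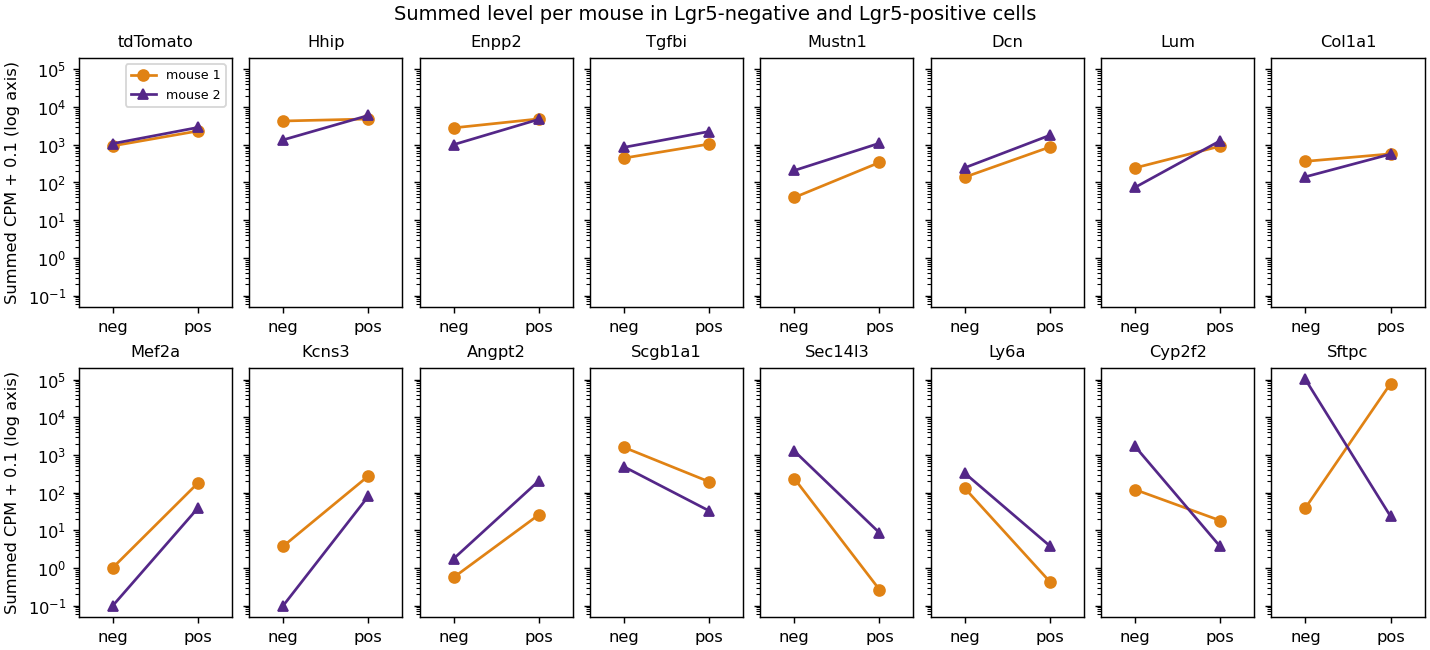
Summed level of 16 genes in negative and positive cells of mouse 1 (circles) and mouse 2 (triangles), as CPM + 0.1 on a log axis, each line joining the groups of a mouse. Mustn1, Dcn, Mef2a, Kcns3 and Angpt2 are higher in positive cells of both mice, Scgb1a1, Sec14l3, Ly6a and Cyp2f2 are lower in both, and Sftpc crosses.

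No duct myofibroblast marker passed the test. All 10 tested members had a positive fold change, 8 of them above the median of all genes, and the list median was 1.41 against 0.32. Hhip was found in 39 of 40 positive and 8 of 13 negative cells. It stood at 4844 against 4281 CPM in mouse 1, which is nearly level, and at 6012 against 1352 CPM in mouse 2, where 3 of the 7 negative cells were the epithelial-marked ones (log2 fold change 1.17 ± 0.68, SE, n = 2 mice; edgeR unadjusted p = 0.136). Enpp2, which makes lysophosphatidic acid, stood at 4865 against 2813 CPM and 4724 against 1009 CPM (1.51 ± 0.61; edgeR unadjusted p = 0.0498). Tgfbi, a matrix protein induced by TGF-beta, stood at 1048 against 444 CPM and 2252 against 856 CPM. Wnt5a, a ligand of non-canonical Wnt signalling, was found in 29 and 4 cells, with 183.7 against 196 CPM in mouse 1 and 353 against 11 CPM in mouse 2. Egfem1 was found in 9 and 0 cells and was at least 67.9-fold higher in summed reads, a bound that does not cover the draw of cells. After thinning the list median was 0.81 with 8 of 10 members positive, and without the 4 cells it was 0.69 with 8 of 10 positive, where the median of all genes was 0.81. The lead of the list over all genes therefore held after thinning and did not hold over mesenchymal cells alone.

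Of general mesenchymal genes, all 10 had positive fold changes, though 3 were higher in both mice, and 9 were above the median of all genes, with a list median of 1.06. Dcn, which encodes decorin, a collagen-binding proteoglycan, stood at 872 against 138.1 CPM in mouse 1 and at 1788 against 245 CPM in mouse 2 (log2 fold change 2.76 ± 0.71, SE, n = 2 mice; edgeR unadjusted p = 0.00815, adjusted p = 1). It was found in 32 of 40 positive and 8 of 13 negative cells, with medians of 9.69 against 4.96 in mouse 1 and 10.27 against 1.81 in mouse 2 on the log2(TPM + 1) scale. The ranges overlapped, from 0 to 12.43 against 0 to 8.72 in mouse 1. Without the 4 cells Dcn stood at 2.03 (log2), and with thinning as well it was 1 of 2 genes with an adjusted p under 0.05 (edgeR, 7355 genes tested), at 2.20. The other was Cxcl10, an interferon-induced chemokine chosen here after its values were seen, found in 0 positive and 2 negative cells. Dcn and the rest of this list are the 10 markers that set the limit on cells. Their values without the 4 cells are therefore not independent of that limit. Lum, lumican, another small proteoglycan, stood at 918 against 244 CPM and 1279.8 against 74.1 CPM (3.01 ± 0.93; edgeR unadjusted p = 0.0178). Col1a1 stood at 574 against 364 CPM in mouse 1 and 564 against 141.3 CPM in mouse 2. Mgp differed between the mice, at 584 against 687 CPM and 1676 against 174.4 CPM. The list median was 0.40 after thinning, where that of all genes was 0.28. Without the 4 cells it was 0.29 with 6 of 10 members positive, below the 0.81 of all genes. With mouse 2 alone the list median was 2.20, while with mouse 1 alone it was -0.55.

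Other mesenchymal lists were divided. Of collagen and matrix genes, 18 of 27 had positive fold changes with a median of 0.32, equal to that of all genes. Among them Col4a2, a basement membrane collagen, was found in 20 of 40 positive and 12 of 13 negative cells, with 58.8 against 334 CPM and 99.2 against 318 CPM (log2 fold change -2.09 ± 0.96, SE, n = 2 mice; edgeR unadjusted p = 0.0729). Alveolar fibroblast markers did not pass the test, with 2 of 10 positive and a median of -1.30. The mice were opposed, with 0 of 10 positive (median -5.57) in mouse 1 alone and 8 of 10 (median 2.56) in mouse 2 alone. Npnt, an integrin ligand, stood at 14.3 against 436 CPM in mouse 1 and 52.9 against 145.2 CPM in mouse 2, and its log2 fold change turned from -3.19 to 0.64 without the 4 cells. Pdgfra was found in 6 positive and 3 negative cells and pointed in opposite directions, 0.833 against 297 CPM and 41 against 0.551 CPM. Lipofibroblast genes gave 5 of 9 positive (median 0.68), but 4 of 9 after thinning (-0.51) and 1 of 9 on mean log2(TPM + 1) (-0.67). Adventitial fibroblast genes gave 4 of 8 (-0.01) and pericyte genes 4 of 5 (2.31, but 0.26 on mean log2(TPM + 1)). Smooth muscle genes gave 4 of 7 positive with a median of 0.07. Within these Acta2, smooth muscle actin, was found in 23 of 40 positive and 8 of 13 negative cells, with 340 against 241 CPM and 871 against 154.6 CPM (log2 fold change 1.496 ± 0.92; edgeR unadjusted p = 0.157). No member of these lists passed the test.

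Genes of the pathway in which Lgr5 acts were next compared. Of the R-spondin receptors and ligands, 4 of 8 passed the filter on low counts and 3 had positive fold changes. Lgr4, the widely expressed paralog, was found in 6 positive and 3 negative cells, at 15.8 against 5.51 CPM and 5.14 against 0.551 CPM. Lgr6, the paralog used for the second sort, was found in 11 and 4 cells and pointed in opposite directions in the mice, at 12.5 against 46.8 CPM and 34 against 6.89 CPM. Znrf3, a ubiquitin ligase that removes Frizzled receptors, was found in 38 of 40 and 13 of 13 cells and was nearly level, at 42.2 against 52.8 CPM and 49.7 against 64.2 CPM. The R-spondin Rspo1 was near the floor, at 0.551 to 2.83 CPM in the 4 sums.

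Wnt ligands gave 3 of 4 tested members with positive fold changes (median 2.35) and Wnt receptors 4 of 7 (median 3.23). On mean log2(TPM + 1) these medians were 0.30 and 0.36. In the edgeR fits of summed counts that leave out a mouse, the receptor median was 0.41 in mouse 1 alone and 0.87 in mouse 2 alone. Of the receptors, Fzd3 stood at 25 against 7.8 CPM and 70 against 2.48 CPM. Of canonical Wnt targets, 10 of 13 were positive with a median of 1.62, and of 0.30 on the mean log2(TPM + 1) scale with 9 of 13 positive. Axin2, the target most used as a readout of the pathway, was found in 5 positive and 2 negative cells. It stood at 4.5 against 0 CPM and 3.2 against 7.99 CPM, and so showed no common direction over all cells. These rested on 27 against 0 reads and 23 against 29 reads. Without the 4 cells of few mesenchymal markers, the log2 fold change of Axin2 was 7.15 (from 1.47). Of the Wnt targets, 12 of 13 were then positive with a median of 1.68, where that of all genes was 0.81. Tnfrsf19 (Troy), a receptor of the TNF family, was found in 15 and 3 cells, at 70.5 against 0.459 CPM and 429 against 41.3 CPM (log2 fold change 4.99 ± 1.56, SE, n = 2 mice; edgeR unadjusted p = 0.0193, adjusted p = 1). Myc stood at 549 against 153.3 CPM and 581 against 143.3 CPM (1.93 ± 0.80; edgeR unadjusted p = 0.0541), and Cd44, a hyaluronan receptor, at 303 against 137.2 CPM and 624 against 146.8 CPM. Among secreted antagonists, 3 of 4 were positive. Wif1, which binds Wnt proteins, was found in 14 of 40 positive and 4 of 13 negative cells, and stood at 166.2 against 49.1 CPM and 567 against 36.6 CPM (2.86 ± 1.13; edgeR unadjusted p = 0.0452).

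The genes known from Lgr5+ stem cells of the intestine were in part too low to test and otherwise divided. Of 14 listed genes, 13 were in the files under the listed name and 7 were tested, of which 3 had positive fold changes. The listed name Troy is Tnfrsf19, which is in the files and was counted with the Wnt targets above, with a positive fold change. After thinning, 3 of 3 were positive (median 4.43), and without the 4 cells 3 of 5 (median 0.64, where that of all genes was 0.81). Ascl2, the transcription factor of intestinal Lgr5+ stem cells, had 0 reads in all cells of both groups. Sox9 was found in 10 positive cells and 1 negative cell, at 67.5 against 0 CPM and 11.3 against 0.275 CPM (edgeR unadjusted p = 0.0587), and Smoc2, a matricellular protein, in 14 and 1 cells, at 195 against 67.9 CPM and 805 against 0 CPM. Cell cycle genes gave 12 of 19 positive with a median of 0.72. Of its members, 5 were higher and 4 lower in positive cells of both mice. Mki67, a marker of cycling cells, was found in 0 of 40 positive and 3 of 13 negative cells, at 0 against 13.3 CPM and 0 against 6.61 CPM. It rested on 29 and 24 reads. Top2a, of the same list, went the other way, in 20 and 5 cells, at 16.5 against 5.05 CPM and 14.2 against 0.551 CPM. Pcna, which also serves DNA repair, was found in 14 and 2 cells.

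Of the FGF pathway, 6 of 13 tested members were positive with a median of -0.07. Hedgehog genes gave 7 of 9 positive (median 1.17) but 3 of 9 on the mean log2(TPM + 1) scale. In the edgeR fits of summed counts they gave 2 of 9 (median -1.72) in mouse 1 alone against 7 of 9 (median 6.40) in mouse 2 alone. The target Gli1 was found in 1 positive cell and 0 negative cells. BMP pathway genes gave 10 of 11 positive with a median of 0.95. Bmp2 was found in 5 positive and 0 negative cells, at 3.17 and 6.95 CPM. No member of these pathways passed the test.

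**Figure D4:**
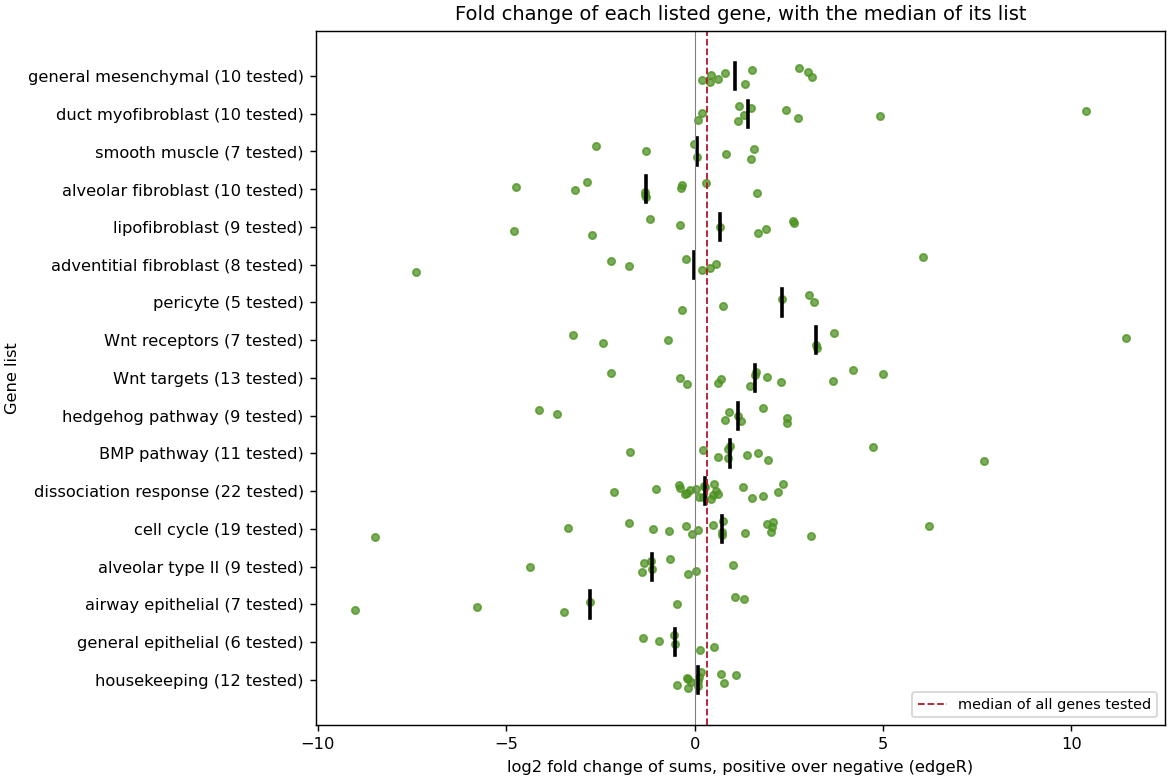
Log2 fold change of summed counts (edgeR, positive over negative, mouse as block) of each tested member of 17 gene lists, one point a gene, with the list median as a black bar and the median of all genes (0.32) as a dashed line. Duct myofibroblast and general mesenchymal members lie above 0, and airway epithelial and alveolar fibroblast medians lie below 0.

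Genes that cell dissociation induces gave 15 of 22 positive with a median of 0.27, below that of all genes, and 5 of 22 on the mean log2(TPM + 1) scale. Klf6 stood at 315 against 56.9 CPM and 423 against 89.8 CPM (log2 fold change 2.35 ± 0.93, SE, n = 2 mice; edgeR unadjusted p = 0.0447), and Fos was divided, at 983 against 2139 CPM and 1444 against 357 CPM. Housekeeping genes gave 7 of 12 positive with a median of 0.09. Rn45s, the ribosomal RNA precursor, took 5.66 to 66.8% of a cell's reads with a median of 32.8%, and stood at a log2 fold change of -0.17 ± 0.25.

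Markers of other cell types that the gate could hold were examined over whole lists. Alveolar type II genes (9 in the files) summed to 2.96 to 457671 CPM per cell in positive cells of mouse 1 and to 0 to 781 CPM in those of mouse 2, and to 9.91 to 165.7 CPM and 2.96 to 307714 CPM in negative cells. Sftpc therefore pointed in opposite directions, at 77642 against 39 CPM in mouse 1 and 23.3 against 100191 CPM in mouse 2, through 1 positive cell and 2 negative cells. The list had 2 of 9 positive with a median of -1.14, and without the 4 cells 5 of 5 with a median of 3.64, where Sftpc turned from -0.18 to 3.64. Airway epithelial genes did not pass the test, with 2 of 7 positive and a median of -2.78, which was -0.34 on the mean log2(TPM + 1) scale. Without the 4 cells the list turned, with 4 of 5 positive and a median of 1.19. Scgb1a1, the secretoglobin of club cells, was found in 14 of 40 positive and 7 of 13 negative cells, at 194 against 1586 CPM and 32.8 against 486 CPM (log2 fold change -3.46 ± 0.80, SE, n = 2 mice; edgeR unadjusted p = 0.00512, adjusted p = 1), and stood at -2.40 without the 4 cells. A single cell gave 97.5% of the Scgb1a1 reads of negative cells in mouse 1 and another 82.1% in mouse 2. Cyp2f2, the club cell cytochrome, turned from -5.77 to 0.33 without the 4 cells. General epithelial genes gave 2 of 6 positive (median -0.52), or 2 of 4 (median 0.15) without the 4 cells, and alveolar type I genes 1 of 5 (median -0.88).

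Of the depleted lineages, Ptprc (CD45) was found in 0 positive cells and 1 negative cell and Pecam1 (CD31) in 0 of both, as the authors' filter on these genes requires. Immune genes summed to at most 22.1 CPM per cell in negative cells of mouse 1 and 77.2 CPM in positive cells of mouse 2, but reached 3724 CPM in positive cells of mouse 1 and 5951 CPM in negative cells of mouse 2, and 6 and 14 of the 20 markers were at 0 in every cell of those 2 groups. Class II genes carried this, with H2-Ab1 at 209 against 1.84 CPM and 1.11 against 1132 CPM. Without the 4 cells of few mesenchymal markers, 1 of the 4 tested immune genes still passed the filter on low counts, and H2-Ab1 did not. Endothelial genes gave 1 of 2 tested members positive, mesothelial genes 2 of 2, Schwann and neural genes 2 of 3 and mast cell genes 2 of 2. Of erythroid genes, 6 of 10 were positive with a median of 0.24. Hbb-bh1, an embryonic beta-like globin, was found in 39 of 40 positive and 12 of 13 negative cells and was level, at 359 against 336 CPM and 392 against 304 CPM. The part of admixed cells in the values above was not tested beyond the results without the 4 cells.

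The same division was made in the Lgr6-sorted mice, giving 4 and 11 positive and 39 and 47 negative cells. The positive groups of the lines were unlike in Lgr5 itself. Its median level was 2.46 and 2.96 on the log2(TPM + 1) scale in these mice, against 8.31 and 7.18 in the Lgr5-sorted mice. In the Lgr6-sorted mice 9 of 12047 genes (0.0747%) passed an adjusted p of 0.05, all lower in positive cells (edgeR), and 0 without the mouse block. At an unadjusted p under 0.05 there were 700 genes (5.81%), 26 higher (0.216%) and 674 lower (5.59%). The 9 were Sftpc, Sftpa1, Sftpd, Lyz2, Slc34a2, Scd1, Rn45s, Dcn and Inmt, which include 5 of the alveolar type II list, and the median fold change over all genes was -1.998 (log2). The 86 negative Lgr6-sorted cells had 0 to 10 mesenchymal and 0 to 10 epithelial markers of 10. The 15 positive ones had 5 to 8 mesenchymal markers and at most 1 epithelial marker. The part of epithelial-marked cells in the 9 calls was not tested. Hhip was found in 4 of 4 and 11 of 11 positive cells and in 31 of 39 and 39 of 47 negative cells. The contrast in the Lgr5-sorted mice differed from that in the Lgr6-sorted mice for 1 of 13361 genes (0.00748%), Dcn, with a fitted log2 difference of 18.14 (edgeR adjusted p = 0.0266), and for 0 genes without the mouse block. The size of that value depends on the prior count, since one group was at 0. At an unadjusted p under 0.05 there were 502 genes (3.76%), 466 of them with the more positive fold change in the Lgr5-sorted mice (3.49%) and 36 with the more negative one (0.269%). The median of this difference over all 13361 genes was itself 2.30 (log2), so the 466 and 36 are read against that shift. Dcn had 0 reads in the positive Lgr6-sorted cells of both mice and 12428 and 12558 reads in 8 of 39 and 8 of 47 negative cells. Its summed reads were thus at least 1467-fold lower where Lgr5 was found, a bound set by 3 reads over the group. The bound covers the counting of reads and not the draw of cells, and most negative cells had no Dcn reads either. In the Lgr5-sorted mice Dcn had 5233 reads in positive and 301 in negative cells of mouse 1 and 12866 and 891 in mouse 2. The positive Lgr6-sorted cells behind this difference numbered 15.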

How the data were processed

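The authors demultiplexed reads with bcl2fastq 2.17.1.14 and pseudo-aligned them with kallisto 0.43.0 (submitters' processing notes) to the mm10 transcriptome, summed transcripts to genes and deposited a count per gene for each of 384 wells. The authors also deposited log2(TPM + 1) levels before and after a cell filter (genes detected, housekeeping level, removal of cells with outlying gene numbers, reporter, Ptprc and Pecam1). The last table is a score: counts of each kept cell that the authors scaled to a common depth and deposited as whole numbers. No doublet caller was run here. The annotation release is not given in the sources used here.

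Cells were grouped by Lgr5 as described, and the deposited counts were summed per mouse and group. The positive and negative sums of a mouse came from the same animal, so the mouse was a block, and n is 2 mice. Same-numbered mice of the Lgr5 and Lgr6 lines were different animals, each with its own block. Tests used edgeR 4.0.16 in R 4.3.3 (filterByExpr, TMM, glmQLFit, glmQLFTest) with Benjamini-Hochberg adjustment. Each SE beside an edgeR fold change was worked back from that test, as the fold change over the square root of its F statistic. It therefore restates the test and is not a spread measured over the 2 mice. CPM of sums use the counts of tested genes after TMM, as do the bounds in the Lgr5-sorted mice, and the bound of Dcn in the Lgr6-sorted mice uses the counts of all genes. DESeq2 1.42.0 and limma 3.58.1 were alternatives, and scripts were tested on simulated data. Thinning drew 113000 reads from each cell without replacement. Medians of lists were the same with 0-count genes at their bound, except for mast cell genes (6.00 and 4.06).

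The cell groups, gene lists and rule for named genes were chosen with earlier results of these data known. The rule names the 12 genes of smallest p in each direction with the same direction in both mice and a gap in detection of at least 20 percentage points, up to 4 members of smallest p and the first member of each list. Rn45s, Cxcl10, Sftpa1, Lyz2 and Chi3l1 and the genes called in the Lgr6-sorted mice were named after their values were seen. Sequences are from RefSeq and gene positions from GENCODE vM21. Figures were drawn with matplotlib 3.10.9. Experiments of the study other than the single-cell data were not analysed here.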

Additional observations from a re-analysis of the deposited data

Results flagged for a closer look

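The change of Dcn with Lgr5 differed between the Lgr5-sorted and the Lgr6-sorted mice by 18.14 on the log2 scale (edgeR interaction term, adjusted p = 0.0266, 2 mice a line). The median Lgr5 level of positive cells was lower in the Lgr6-sorted mice, at 2.96 against 7.60 on the log2(TPM + 1) scale.

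Lgr5 was also present in wells outside the comparison. The pool well of mouse 2 held 55 Lgr5 reads among 204948, which is 6.84 on the log2(TPM + 1) scale, while the pool well of mouse 1 held 0 among 353310, which allows up to 8.49 CPM. Of the Lgr5-sorted single-cell wells that the authors removed, 61 had Lgr5 at log2(TPM + 1) of at least 1, which is 45.9% (exact Clopper-Pearson 95% interval 37.2 to 54.7%), and 61 had a count of 0.

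Of 58 groups of 4 to 10 cells examined for a single cell far from the others, 9 had one, where chance marks about 1 in 20 groups of evenly spread values. That rate does not apply to genes found in few cells, and several of these genes were ranked for being rare in negative cells. In negative cells of mouse 1, a single cell stood above the rest for Armc8 (0.77), Mef2a (1.47), Kcns3 (3.43), Angpt2 (1.28) and 5330417C22Rik (7.10), and 1 cell stood below the rest for A630007B06Rik (0), all on the log2(TPM + 1) scale. In negative cells of mouse 2, a single cell stood above the rest for Angpt2 (0.34), Sec14l3 (11.48) and Ly6a (11.78), Sec14l3 and Ly6a in the same cell.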

How the results depend on the processing

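In the Lgr5-sorted mice, edgeR called 0 genes under each other scaling, filter, threshold and set of sums tried, and 0 with no replicate block (580 genes at an unadjusted p under 0.05 against 250 with the block). DESeq2 called 211, limma on mean log2(TPM + 0.1) called 1, and leaving out a mouse gave 6 to 18, where the spread came from the sums of the Lgr6-sorted mice. Over cells with at least 5 mesenchymal markers, a limit chosen after the data were seen, 1 gene was called (Rn45s, at -0.28), and 2 when these cells were thinned as well (Dcn and Cxcl10). Dcn is itself one of the markers that set this limit. In the Lgr6-sorted mice DESeq2 called 788 genes and the fit with no replicate block 0. For the difference between the lines DESeq2 called 563, thinned cells 7, and the fit with no replicate block 0. The cause was not tested.

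The log2 ratio of total counts was -0.44 with means in place of medians. The difference in genes detected ran from -775 to 367 as each mouse was left out, turning its direction. The share of positive cells was 64.7% after thinning, 77.2% at any Lgr5 count and 57.9% at log2(TPM + 1) of at least 5. Leaving out each mouse turned the log2 fold changes of Sftpc (-11.94 to 10.96), Sftpa1 (-12.29 to 21.79), Lyz2 (-11.34 to 12.98), Chi3l1 (-19.48 to 17.76) and Rn45s (-0.31 to 0.10). Of 2712 values of the named genes under the alternatives, 2472 kept direction and side of the threshold, 41 passed it, 5 are those above, and 194 changed sign without having passed it. With 2 mice and few cells a group, small differences were not detectable.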

Other observations

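A few further members of the lists, picked after their values were seen, also differed in how many cells held them. Has1, which makes hyaluronan, was found in 7 of 40 positive cells and 1 of 13 negative cells, at 843 against 0 CPM in mouse 1 and 35.8 against 13.8 CPM in mouse 2 (edgeR unadjusted p = 0.172, adjusted p = 1). Abcc9, a subunit of potassium channels of pericytes and muscle, was found in 31 and 8 cells, at 95.3 against 79.4 CPM and 257 against 3.58 CPM. Eng, a co-receptor of TGF-beta, was found in 22 and 6 cells, at 113.01 against 91.3 CPM and 573 against 33.1 CPM. Tppp3 was found in 20 and 5 cells, at 94.7 against 36.3 CPM and 441 against 187.1 CPM. Each was higher in the positive cells of both mice, and 29.3% of all tested genes were.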
